A study of Homo sapiens with 9 samples.

Results

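PARylator, annotated as the long non-coding RNA LINC00885, was the target of the small interfering RNA (siRNA) examined here, PARylator siRNA.2. The comparison held 6 of the 9 libraries of the series: 3 libraries of TE13 cells that received siRNA.2 and 3 libraries of TE13 cells that received control siRNA. TE13 is an established human esophageal squamous cell carcinoma (ESCC) cell line, and the 3 libraries outside the comparison came from TE13 cells with PARylator siRNA.1, an siRNA against the same RNA, which were used only where siRNA.2 was set against siRNA.1. Of 60605 genes in the count table, 31421 had at least 1 read in the 6 libraries and 21314 reached a mean of 0.1 FPKM (fragments per kilobase of exon and per unit of library size, the usual length- and depth-scaled count) over them, and these 21314 genes were tested. The labels name no other agent for any library. The time between transfection and RNA extraction was not given for these libraries, and no label said whether the 3 libraries of a group were separate cultures, so the p-values measure only the spread between these libraries. siRNA numbers follow the library labels, and which of the listed siRNA sequences each label stands for was not tested. A single control siRNA and a single siRNA.2 were used, so loss of PARylator and any other action of the siRNA.2 duplex cannot be told apart in this comparison.

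Small interfering RNAs are short RNA duplexes that guide the RNA interference machinery to a matching transcript. Cells also carry receptors for foreign or double-stranded RNA (RIG-I, encoded by RIGI, MDA5, encoded by IFIH1, and PKR, encoded by EIF2AK2) whose activation induces type I and type III interferons, and these act through receptors and STAT transcription factors on a large set of antiviral genes. In the integrated stress response, phosphorylation of the translation factor eIF2 favours translation of ATF4. ATF4 is a transcription factor for amino acid synthesis, amino acid transport and tRNA charging genes. The SREBP transcription factors do the same for cholesterol and fatty acid synthesis, and squamous epithelium such as that of the esophagus is maintained by factors including TP63, SOX2 and ZNF750 and builds keratins and cornified envelope proteins as it matures.

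The promoters of 5 genes from these programmes are shown because the genes carried large or central changes below and each promoter held the short core motif named for the programme. Each is 300 bases from RefSeq (GRCh38.p14), 5′ to 3′ on the gene's strand, from 250 bases before to 50 bases after the annotated start, and capitals mark the motif on either strand. For RSAD2 (viperin, chr2:6865635-6865934, plus strand) and IFIT1 (chr10:89392373-89392672, plus strand) the motif is the core of the interferon-stimulated response element, GAAANNGAA. For SREBF2 (the gene of SREBP2, chr22:41832855-41833154, plus strand) it is the core of the sterol regulatory element, TCACNCCAC. For CHAC1 (chr15:40953221-40953520, plus strand) and ATF3 (chr1:212565157-212565456, plus strand) it is a core of the amino acid response element, TGATGNAA.
RSAD2: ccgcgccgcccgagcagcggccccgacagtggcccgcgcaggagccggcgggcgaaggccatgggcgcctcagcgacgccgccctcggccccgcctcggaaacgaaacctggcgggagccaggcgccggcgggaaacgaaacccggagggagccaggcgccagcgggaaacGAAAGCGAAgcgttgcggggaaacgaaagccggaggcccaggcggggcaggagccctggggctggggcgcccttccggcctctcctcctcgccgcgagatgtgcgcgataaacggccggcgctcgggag
IFIT1: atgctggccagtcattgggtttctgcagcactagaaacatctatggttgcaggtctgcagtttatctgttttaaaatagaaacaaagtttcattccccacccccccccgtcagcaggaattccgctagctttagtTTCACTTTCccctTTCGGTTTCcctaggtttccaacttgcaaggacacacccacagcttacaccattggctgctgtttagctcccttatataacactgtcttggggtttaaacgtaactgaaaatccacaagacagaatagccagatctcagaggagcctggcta
SREBF2: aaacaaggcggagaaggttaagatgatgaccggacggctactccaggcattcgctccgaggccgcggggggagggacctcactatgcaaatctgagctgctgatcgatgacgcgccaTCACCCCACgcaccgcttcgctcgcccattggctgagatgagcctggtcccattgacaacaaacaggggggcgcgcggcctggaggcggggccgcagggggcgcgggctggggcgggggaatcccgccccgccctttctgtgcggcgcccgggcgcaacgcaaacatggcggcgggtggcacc
CHAC1: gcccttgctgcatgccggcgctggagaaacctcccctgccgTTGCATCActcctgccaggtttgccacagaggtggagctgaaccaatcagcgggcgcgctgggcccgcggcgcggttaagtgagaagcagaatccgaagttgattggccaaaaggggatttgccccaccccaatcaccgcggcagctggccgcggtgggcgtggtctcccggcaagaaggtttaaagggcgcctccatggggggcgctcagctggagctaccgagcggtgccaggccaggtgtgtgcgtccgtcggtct
ATF3: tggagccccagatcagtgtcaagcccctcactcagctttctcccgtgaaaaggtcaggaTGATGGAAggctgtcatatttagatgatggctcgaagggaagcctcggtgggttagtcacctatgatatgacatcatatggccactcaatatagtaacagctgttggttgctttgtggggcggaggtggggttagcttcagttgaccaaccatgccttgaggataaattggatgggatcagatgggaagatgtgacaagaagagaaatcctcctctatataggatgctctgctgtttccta

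A promoter could be matched for 12246 of the tested genes, and the 4 motifs were counted on both strands in all of them and in the 27305 promoters of the RefSeq table. The interferon element core was present in 8.29% of all table promoters, in 6.58% of the promoters of tested genes, and in 23 of the 29 matched promoters (79.3%) of the interferon-induced antiviral effectors described below. Among genes that were at least 2-fold higher with siRNA.2, 61 of 281 promoters (21.7%) held it, against 7.41% for genes at least 2-fold lower. The amino acid response core was present in 1.71% of tested promoters. By list, it was in 6 of 16 promoters of cytosolic tRNA synthetases (37.5%) and in 4 of 17 of integrated stress response regulators (23.5%). Among genes at least 2-fold higher with siRNA.2, 8 of 281 promoters (2.85%) held it, against 7 of 216 (3.24%) for genes at least 2-fold lower. The sterol core was present in 1.12% of tested promoters, in 0 of 15 matched promoters of cholesterol synthesis genes and in 1 of 18 of the SREBP and fatty acid list. An antioxidant response core, TGACNNNGC, was present in 14.9% of tested promoters and in 5 of 16 of NRF2 targets (31.3%). These are counts of letters in a 300-base window, and an absent match says nothing about binding of a factor elsewhere.

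The libraries held 15337917 to 17899074 counted reads in the control siRNA group and 19213164 to 22559998 in the siRNA.2 group, so the siRNA.2 libraries were the deeper ones. Reads of mitochondrially encoded genes made up 7.46% to 7.66% of the control libraries and 5.54% to 5.56% of the siRNA.2 libraries. Replicates of a group varied by 2.76 to 3.78 times the counting variance, and the first principal component, with 75.3% of the variance over 12522 genes, separated all 3 siRNA.2 libraries from all 3 control libraries. Defining markers of squamous epithelium were abundant in every library, with a sum over 10 markers of 1077 to 1086 FPKM in control and 978.5 to 989.9 FPKM in siRNA.2 libraries.

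LINC00885 (ENSG00000224652, chromosome 3, 196142525 to 196160893 of GRCh38, plus strand) was a scarce transcript in these libraries. It had 6, 7 and 12 reads in the control libraries and 2, 0 and 4 reads in the siRNA.2 libraries, or 0.17, 0.19 and 0.29 FPKM against 0.04, 0 and 0.08 FPKM. Every siRNA.2 library lay below every control library. The summed level with siRNA.2 was 19.0% of control after scaling to library size (95% exact interval 6.39% to 47.5%, counting error only). The log2 difference of -2.34 ± 1.00 (SE) did not pass the test (edgeR quasi-likelihood test, Benjamini-Hochberg adjusted p = 0.0594, n = 3 against 3), and 1 library decided the call: without siRNA.2 replicate 3 the difference was -3.17 and passed.

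Across the 21314 genes, 6705 (31.5%) passed an adjusted p of 0.05 in edgeR's quasi-likelihood test, 3336 of them higher (15.7%) and 3369 lower (15.8%) with siRNA.2. Most changes were small: the median size among the called genes was 0.40 on the log2 scale, and 865 called genes changed at least 2-fold, 473 higher and 392 lower. The median log2 difference over all tested genes was -6.19e-04. For 6246 of the called genes the 3 siRNA.2 libraries and the 3 control libraries did not overlap. Calls were rarer at low expression, with 894 calls among the 8806 tested genes below a mean of 1 FPKM. The shares 15.7% and 15.8% are the background for every count of genes given below. Restricted to the 12508 whose mean level reached 1 FPKM, the shares were 23% higher and 23.5% lower. Each fold is a log2 difference of siRNA.2 against control siRNA in the same fit, with its standard error.

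The type III interferon genes IFNL1, IFNL2 and IFNL3 and the type I gene IFNB1 were higher with siRNA.2, while the receptors and most of the signalling chain were flat or lower. IFNL1, an interferon lambda secreted by epithelial cells (ENSG00000182393, chromosome 19, 39296407 to 39298673), had 0.67, 0.25 and 0.58 FPKM in control libraries 1 to 3 and 4.04, 4.43 and 4.58 FPKM in siRNA.2 libraries 1 to 3, the order used throughout. All 3 siRNA.2 libraries were far above all controls, with a log2 difference of 3.08 ± 0.38 (adjusted p = 8.11e-15). IFNL2 had 0, 0 and 1 reads in the controls and 41, 36 and 42 reads with siRNA.2, at least 10.4-fold higher against a floor of 3 reads per library. IFNB1, interferon beta, was at least 5.47-fold higher by the same floor (0.16, 0.08 and 0.07 against 0.84, 1.30 and 1.48 FPKM), and IFNL3 was 4.08 ± 0.47 higher. The type I genes IFNE and IFNK did not pass (adjusted p = 0.893 and 0.687). IFNL2 and IFNL3 are near-identical neighbours, so the split of reads between them is uncertain. Among the 25 tested genes for interferon ligands, receptors and signalling, 8 were higher and 9 lower, with a median of -0.08. USP18, an inhibitor of receptor signalling, rose by 2.02 ± 0.09, whereas STAT2 rose by 0.21 and the change of IRF9 did not pass (log2 0.22, adjusted p = 0.122). The receptor chain IL10RB (-0.59), the kinase TYK2 (-0.47) and the inhibitor SOCS3 (-0.36) fell. The count of lower genes in this list varied with the libraries kept, and without control replicate 1 it was 5. The receptor genes IFNAR1, IFNGR1 and IFNGR2 each lost their call without control replicate 1, control replicate 3 or siRNA.2 replicate 1. They also lost it under both limma settings.

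Of 16 tested RNA and DNA sensors, 10 were higher and 1 lower, with a median of 0.34. The largest change was in ZBP1, a sensor of left-handed nucleic acids, which rose by 2.01 ± 0.15. IFIH1 rose from 10.2, 10.6 and 9.18 to 34.5, 34.8 and 33.4 FPKM, with no overlap of the groups and a log2 difference of 1.76 ± 0.06. RIGI rose by 1.31 ± 0.10 and IFI16, a DNA sensor, by 0.97 ± 0.05, but EIF2AK2 only by 0.24 ± 0.04. MAVS, the adaptor that RIG-I and MDA5 share, fell by 0.47, and TBK1 (log2 -0.11, adjusted p = 0.156), STING1 (-0.15, 0.229) and TLR3 (-0.07, 0.714) did not pass.

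The antiviral effectors had a median change of 1.38, the largest among the lists that are not cell type markers, with 36 of 38 tested genes higher and 2 lower. RSAD2 (viperin, ENSG00000134321, chromosome 2, 6865557 to 6898239), which makes a chain-terminating nucleotide, had 1.89, 1.70 and 1.57 FPKM in the controls and 19.01, 18.5 and 18.1 FPKM with siRNA.2. The groups were tight and far apart, and the log2 difference was 3.42 ± 0.08. IFIT1, which binds foreign RNA ends (ENSG00000185745, chromosome 10, 89392546 to 89406487), rose from 10.2, 12.3 and 11.4 to 90.4, 89.6 and 87.8 FPKM, a log2 difference of 2.97 ± 0.05. IFI6 rose from 79.5, 75.7 and 62.5 to 543, 562 and 543 FPKM, a log2 difference of 2.91 ± 0.05 at a level that placed it among the abundant transcripts of the cell. ISG15, the ubiquitin-like modifier, rose from 100.1 ± 2.68 to 425 ± 5.36 FPKM (mean ± SD, n = 3 each). MX2 (2.67 ± 0.06), IFI44L (2.46 ± 0.06), MX1 (2.21 ± 0.04) and the oligoadenylate synthetase OAS1 (2.16 ± 0.06) rose as well. Of the 2 lower genes, 1 fell by 0.75 and the other, the GTPase GBP2, by 0.50. GBP2 lost its call, and the count of lower genes was 1, without control replicate 3 and without siRNA.2 replicate 2.

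Class I genes of antigen presentation were mostly higher, and 3 of 6 tested class II genes rose from under 1 FPKM in every control library. HLA-B, a class I heavy chain, had 62.5, 62.5 and 58.6 FPKM in the controls and 158, 151 and 151 FPKM with siRNA.2. The groups did not overlap, and the log2 difference was 1.31 ± 0.04 (adjusted p = 3.87e-202). The light chain B2M rose from 313 ± 5.15 to 655 ± 20.8 FPKM (mean ± SD, n = 3 each) and the peptide transporter TAP1 by 1.18 ± 0.06. In all, 12 of 20 class I genes were higher and 4 lower (median 0.42), and the 4 lower ones were the chaperone CALR (-0.18), the peptidase ERAP1 (-0.35), the loading factor TAPBP (-0.39) and the proteasome subunit PSMB10 (-0.49). Of 6 tested class II genes 3 were higher and 0 lower: HLA-DRA (ENSG00000204287, chromosome 6, 32439878 to 32445046) rose from 0.26, 0.31 and 0.13 to 3.25, 4.35 and 3.92 FPKM, CD74, the invariant chain, rose by 1.69 ± 0.21, and HLA-DPA1 was at least 6.77-fold higher. CD74 averaged only 0.35 FPKM in the controls and 1.15 FPKM with siRNA.2, and HLA-DPA1 0.017 and 0.217 FPKM. HLA-DPA1 lost its call with limma on log2(FPKM + 1). The class II transactivator CIITA did not pass (log2 0.40, adjusted p = 0.323). Some markers of immune cells also rose and are given below, and the part of other cells in the class II changes was not tested. Reads of the highly similar HLA genes may be split between them.

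Several CXC chemokines rose, and some cytokines fell. CXCL10 (ENSG00000169245, chromosome 4, 76021118 to 76023497), a ligand of the receptor CXCR3 that interferons induce, had 9.32, 8.30 and 5.56 FPKM in the controls and 113, 94.5 and 103 FPKM with siRNA.2. The lowest siRNA.2 library was many times the highest control, and the log2 difference was 3.74 ± 0.08. CXCL11, a second CXCR3 ligand, rose from 17.1 ± 1.61 to 61.8 ± 1.87 FPKM (mean ± SD). The neutrophil-attracting CXCL2 (1.82 ± 0.20), CXCL3 (1.39) and CXCL8 (1.17) and the cytokine IL6 (1.01) also rose. In the opposite direction IL23A fell by 1.27, IL18 by 0.90, IL11 by 0.78 and the interleukin-1 antagonist IL1RN by 0.74, and the chemokines CXCL16 and CCL5 fell by 0.20 and 0.21, CCL5 without a call when control replicate 1 or siRNA.2 replicate 3 was left out. In the list of 28 chemokines and cytokines 11 were higher and 7 lower, with a median of 0.13. PTGS2, cyclooxygenase 2 and the rate-limiting enzyme of prostaglandin synthesis (ENSG00000073756, chromosome 1, 186671791 to 186680922), had 3.09, 2.22 and 2.52 FPKM in the controls and 19.4, 19.8 and 18.7 FPKM with siRNA.2, a log2 difference of 2.87 ± 0.08 (adjusted p = 1.36e-313).

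Some genes used as markers of immune cells were higher with siRNA.2 too. The summed level of 10 myeloid markers was 1.18 to 2.03 FPKM in the controls and 6.71 to 7.41 FPKM with siRNA.2, and 4 of 8 tested were called higher and 0 lower: LYZ (3.23 ± 0.30), FCER1G (2.89 ± 0.59), CSF1R (0.63 ± 0.24) and CD14 (at least 2.89-fold higher). The count was 2 without control replicate 2, without control replicate 3 or without siRNA.2 replicate 1. CD163 and AIF1 lay below the filter and were not tested. CD163 had 0 reads in every control library and 15, 17 and 24 reads with siRNA.2. AIF1 had 0 reads in every control library and 2, 5 and 6 reads with siRNA.2. Of the tested markers not called, LST1 alone had a lower mean with siRNA.2 (0.15 in controls against 0.13 FPKM). The sums of 5 pan-leukocyte markers overlapped (21.78 to 23.67 against 21.56 to 23.33 FPKM), but of 4 tested 1 was higher and 1 lower. CD53 rose from 0.24, 0.12 and 0.1 to 0.66, 0.44 and 0.64 FPKM. LAPTM5 fell from 5.09, 4.83 and 4.93 to 2.58, 2.34 and 2.27 FPKM. PTPRC, the defining CD45 gene, had 0.03, 0.05 and 0.02 against 0.16, 0.12 and 0.16 FPKM. Markers of T and B cells summed to 2.27 to 2.57 FPKM in the controls and 1.8 to 2.06 FPKM with siRNA.2, with MS4A1 at 0 reads in all 6 libraries. The part of other cells in these results was not tested, and in bulk RNA more cells of a type and more RNA per cell cannot be told apart.

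Amino acid and stress genes formed a second group that rose, by smaller steps than the interferon group. DDIT3 (CHOP), a transcription factor of prolonged stress, had 4.84, 6.33 and 5.26 FPKM in the controls and 11.7, 12.03 and 12.1 FPKM with siRNA.2. The siRNA.2 libraries were close together and well above the controls, a log2 difference of 1.11 ± 0.14 (adjusted p = 5.83e-15). CHAC1, which degrades glutathione, rose from 9.70, 11.4 and 12.7 to 21.9, 24.6 and 22.6 FPKM (1.01 ± 0.08). ATF3, a stress-induced repressor, rose by 1.00 ± 0.09, the secreted factor GDF15 by 0.97 ± 0.08, and the small stress factor NUPR1 by 1.64 ± 0.32 at under 1 FPKM. The message of ATF4 itself rose by 0.35 ± 0.04. Of 19 tested regulators of the integrated stress response 13 were higher and 1 lower (median 0.33). EIF2AK4 (GCN2), the eIF2 kinase that senses uncharged tRNA, did not pass (log2 -0.01, adjusted p = 0.912), and EIF2AK3 (PERK) missed the threshold with all libraries (log2 -0.16, adjusted p = 0.211) and passed without siRNA.2 replicate 1.

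PSAT1, the second enzyme of serine synthesis (ENSG00000135069, chromosome 9, 78297125 to 78330093), had 71.4, 70.8 and 81.9 FPKM in the controls and 175, 184 and 183 FPKM with siRNA.2. The lowest siRNA.2 library was well above the highest control, and the log2 difference was 1.26 ± 0.04. PHGDH, the first enzyme of the path, rose by 0.79 ± 0.04 and PSPH, the last, by 0.36 ± 0.06. The mitochondrial folate enzymes ALDH1L2 (1.08 ± 0.06) and MTHFD2 (0.81 ± 0.04), asparagine synthetase ASNS (0.86 ± 0.16) and the alanine transaminase GPT2 (1.14 ± 0.07) rose. Within the 17 genes of serine, one-carbon, asparagine and proline synthesis 12 were higher and 2 lower (median 0.42), the lower ones being the cytosolic SHMT1 (-0.37) and ASS1 (-0.50). Amino acid transporters were less uniform, with 8 of 17 higher and 3 lower (median 0.29): the cystine carrier SLC7A11 rose by 0.71 ± 0.07 and the neutral amino acid carrier SLC1A4 by 0.55 ± 0.09, while the lysosomal carrier SLC36A1 fell by 0.69.

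The cytosolic tRNA synthetases, which charge tRNAs with their amino acids, were higher in 18 of 20 cases and lower in 1 (median 0.37). WARS1, the tryptophan enzyme and also an interferon-induced gene, had 49.3, 47.4 and 46.9 FPKM in the controls and 99.9, 98.7 and 96.9 FPKM with siRNA.2, a log2 difference of 1.03 ± 0.04 and the largest of the list. The alanine and glycine enzymes AARS1 (0.61 ± 0.04) and GARS1 (0.59 ± 0.04) rose by smaller steps. QARS1, the glutamine enzyme, fell by 0.37, and TARS1 did not pass (log2 -0.06, adjusted p = 0.183).

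Endoplasmic reticulum chaperones rose less, with 12 of 20 higher and 5 lower (median 0.23). HSPA5 (BiP), the main chaperone of that compartment, rose by 0.45 ± 0.03 and SDF2L1 by 0.63 ± 0.10, but DNAJB9 fell by 0.86 and HERPUD1 by 0.33. Cytosolic heat shock chaperones were split, 5 higher and 7 lower of 16 (median -0.05), and the 4 largest decreases were those of HSPB8 (-1.20), its partner BAG3 (-0.50), HSPA1A (-0.45) and DNAJB1 (-0.40). The count of higher chaperones was 3 without siRNA.2 replicate 3.

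Cholesterol synthesis moved the opposite way. Of 20 tested enzymes of the path 0 were higher and 17 lower, with a median of -0.58. MVK, mevalonate kinase (ENSG00000110921, chromosome 12, 109573255 to 109598125), had 4.15, 4.94 and 5.18 FPKM in the controls and 2.41, 2.03 and 1.80 FPKM with siRNA.2. The groups were apart, and the log2 difference was -1.22 ± 0.10 (adjusted p = 3.06e-31). MVD, a later mevalonate enzyme, fell by 1.00, and SQLE, which oxidises squalene and is a control point of the path, by 0.93. The sterol-processing enzymes MSMO1 and HSD17B7 fell by 1.09 and 1.02. The 3 that did not pass were CYP51A1 (log2 0.06, adjusted p = 0.751), EBP (-0.18, 0.146) and PMVK (-0.19, 0.128).

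Regulators of sterol balance and enzymes of fatty acid synthesis fell with them, 0 higher and 15 lower of 22 (median -0.48). INSIG1, which holds SREBPs in the endoplasmic reticulum and is itself a target of them (ENSG00000186480, chromosome 7, 155297776 to 155310235), had 14.3, 14.99 and 18.2 FPKM in the controls and 5.56, 4.88 and 5.70 FPKM with siRNA.2. The groups did not overlap, and the log2 difference was -1.57 ± 0.08. The desaturase SCD fell from 134 ± 11.5 to 64.95 ± 4.11 FPKM (mean ± SD) and fatty acid synthase FASN by 0.71. SREBF2 had 20.9, 20.5 and 21.7 FPKM in the controls and 15.5, 14.5 and 13.9 FPKM with siRNA.2, lower in every siRNA.2 library than in any control (-0.54 ± 0.05), and SREBF1 fell by 0.71. The list also held genes that liver X receptors induce when sterols are abundant, and these were lower too: ABCG1 fell by 1.25, MYLIP by 1.17 and ABCA1 by 0.40. ABCG1, at a mean below 1 FPKM, and ABCA1 lost their calls under both limma settings. MYLIP kept its call under all 15 alternatives. SCAP (log2 -0.05, adjusted p = 0.658) and ACLY (-0.06, 0.382) did not pass.

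All 15 genes of the mitochondrial genome that were tested, 13 protein genes and both ribosomal RNAs, were lower with siRNA.2 (median -0.50). MT-CO3, a subunit of cytochrome oxidase (ENSG00000198938, mitochondrial genome, 9207 to 9990), had 6880, 7097 and 7540 FPKM in the controls and 3931, 3893 and 3933 FPKM with siRNA.2, a log2 difference of -0.89 ± 0.03 and the largest loss of FPKM in this comparison among the genes named. MT-ND6, the only protein gene on the light strand, fell from 1782 ± 72.4 to 898 ± 21.6 FPKM (mean ± SD), and MT-CO2 changed least, by -0.13 ± 0.02. The nuclear genes of the same complexes did not move together: 9 of 32 were higher and 7 lower (median 0.05), and the higher count was 5 without siRNA.2 replicate 2. The libraries were made from poly(A)+ RNA, and the fall in the mitochondrial share of reads was of the same size in each siRNA.2 library (5.54% to 5.56%).

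The squamous programme of these cells was lower in several of its parts, though not in all. KRT5, the basal keratin of squamous epithelium (ENSG00000186081, chromosome 12, 52514575 to 52520530), had 134, 151 and 143 FPKM in the controls and 59.1, 53.8 and 54.6 FPKM with siRNA.2. The groups were tight and far apart, and the log2 difference was -1.37 ± 0.04. Its partner KRT14 did not pass (log2 -0.08, adjusted p = 0.621). KRT15 fell by 1.01. KRT13, a keratin of maturing esophageal cells, fell by 2.72, but was scarce in these cells, with a mean below 1 FPKM over the 6 libraries. Keratins of wounded or activated epithelium differed in direction: KRT6B rose from 0.79, 0.67 and 0.58 to 3.49, 2.33 and 2.81 FPKM (2.06 ± 0.23) and KRT6A by 0.57 ± 0.04, KRT17 fell by 0.34, and KRT16 did not pass (log2 0.11, adjusted p = 0.687). Of 15 keratins 3 were higher and 7 lower (median -0.08).

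Cornified envelope and squamous differentiation genes were lower in 12 of 23 cases and higher in 4 (median -0.39, or -0.47 with genes of 3 or fewer reads in a group set at their bound). SERPINB3, the squamous cell carcinoma antigen (ENSG00000057149, chromosome 18, 63655197 to 63661893), had 4.28, 4.89 and 3.31 FPKM in the controls and 0.56, 0.06 and 0.44 FPKM with siRNA.2, a log2 difference of -3.53 ± 0.27, with the caution that its neighbour SERPINB4 is nearly the same in sequence. S100A9, a subunit of calprotectin, fell from 67.6, 56.5 and 57.1 to 14.3, 15.4 and 13.9 FPKM (-2.07 ± 0.11), and its partner S100A8 by 2.26. SCEL (sciellin) fell by 1.99 and the envelope protein PPL by 1.10, but the small proline-rich proteins SPRR2D (1.62 ± 0.45), SPRR2A (1.56 ± 0.25) and SPRR1B (1.09 ± 0.20) rose.

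Among 17 squamous lineage transcription factors 5 were higher and 10 lower (median -0.21), and 3 were higher without control replicate 3 or without siRNA.2 replicate 1. ZNF750, a factor of terminal squamous differentiation, had 10.7, 8.82 and 8.85 FPKM in the controls and 3.58, 3.38 and 2.89 FPKM with siRNA.2, a fall that separated the groups completely (-1.54 ± 0.11). GRHL3 fell by 0.89, SOX2 by 0.88, NOTCH1 by 0.49 and TP63 by 0.21. OVOL2 rose by 1.00 ± 0.27 and KLF4 by 0.39 ± 0.06. FOXA1, a transcription factor that the study examined, fell by 0.64.

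Growth factor and matrix genes changed in both directions. AREG (amphiregulin, ENSG00000109321, chromosome 4, 74445136 to 74455005), an EGF receptor ligand, had 26.4, 28.01 and 27.2 FPKM in the controls and 67.00, 70.5 and 74.1 FPKM with siRNA.2, with all siRNA.2 libraries far above all controls (1.36 ± 0.06). The ligands BTC (1.53 ± 0.12) and EREG (1.2 ± 0.05) rose too, whereas the receptors ERBB3 (-0.58 ± 0.06) and ERBB2 (-0.41 ± 0.07) fell. EGFR had a small positive difference (log2 0.08, adjusted p = 0.0617) that passed under 6 of the 15 alternatives, including total count scaling, no filter, the 9-library fit and the replicate block. The list of 14 had 9 higher and 4 lower, with a median of 0.44. Immediate early genes, which growth factor signals induce within minutes, were higher in 11 of 18 cases and lower in 5 (median 0.54): FOS (1.37 ± 0.27) and the feedback phosphatase DUSP4 (1.24 ± 0.07) rose, but EGR1 (-0.61 ± 0.08) and JUNB (-0.44 ± 0.05) fell.

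Of 40 genes of the epithelial-mesenchymal transition and matrix, 18 were higher and 15 lower (median 0.09). VIM, the mesenchymal intermediate filament vimentin (ENSG00000026025, chromosome 10, 17228241 to 17237593), had 0.15, 0.1 and 0.16 FPKM in the controls and 1.38, 1.48 and 1.55 FPKM with siRNA.2. The relative change was large (3.38 ± 0.26) and the level stayed below 2 FPKM in every library. LAMA3, a chain of the basement membrane protein laminin 332, rose from 128, 102 and 102 to 223, 216 and 216 FPKM (0.96 ± 0.03), and its partner chain LAMB3 rose by 0.53. MMP9 rose by 1.26 ± 0.08 and the protease inhibitor TIMP3 by 1.44 ± 0.06, while MMP7 fell by 1.35 and COL5A1 by 1.09. The adhesion molecule CDH1 (E-cadherin) fell by 0.53 and CDH2 (N-cadherin) rose by 0.67 ± 0.06. Markers of fibroblasts summed to 2.27 to 2.52 FPKM in the controls and 1.5 to 1.78 FPKM with siRNA.2 (THY1 at 0 reads), and markers of endothelium to 1.2 to 1.56 against 0.5 to 0.57 FPKM, with CDH5 (-1.63 ± 0.25) and VWF (-2.01 ± 0.26) lower. YAP and TEAD targets were split, 4 higher and 7 lower of 18 (median -0.01), with 4 lower without control replicate 1. NT5E rose by 1.21 ± 0.05 and TGFB2 fell by 0.70.

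The cell cycle lists changed by small steps. Of 36 DNA replication genes 18 were higher and 5 lower (median 0.17), led by the ribonucleotide reductase subunit RRM2, which rose from 25.4, 25.7 and 26.01 to 35.1, 36.3 and 36.8 FPKM (0.47 ± 0.04). The lower count was 2 without control replicate 3, 3 without siRNA.2 replicate 1 and 2 without siRNA.2 replicate 3. Of 36 genes of G2 and mitosis 2 were higher and 12 lower (median -0.08), the higher ones AURKB (0.40 ± 0.05) and BIRC5 (0.24 ± 0.05), with CCNB1, the mitotic cyclin, lower by 0.23. In the G1 list, 7 of 23 were higher and 6 lower. MYC had 45.6, 45.4 and 44.4 FPKM in the controls and 79.7, 80.6 and 81.9 FPKM with siRNA.2, and every siRNA.2 library was well above every control (0.82 ± 0.04). CCND1 fell by 0.36, the inhibitor CDKN1A (p21) by 0.28 and CDKN2C by 0.74.

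Genes that p53 induces were not raised as a group, with 6 of 25 higher and 10 lower (median -0.06). PMAIP1 (NOXA), a BH3-only protein, had 25.7, 25.03 and 27.3 FPKM in the controls and 43.9, 44.9 and 44.95 FPKM with siRNA.2, with no overlap and a log2 difference of 0.76 ± 0.06 (adjusted p = 7.03e-35). BBC3 (PUMA) had 2.78, 2.28 and 2.70 FPKM in the controls and 2.71, 2.32 and 2.64 FPKM with siRNA.2, ranges that overlapped (log2 -0.03 ± 0.15, adjusted p = 0.914). TP53INP1 fell by 1.45, ZMAT3 by 0.85, DDB2 by 0.51 and MDM2 by 0.27.

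PARP1, the enzyme whose poly(ADP-ribose) synthesis the study followed, had 19.1, 19.7 and 19.3 FPKM in the controls and 21.9, 22.5 and 23.6 FPKM with siRNA.2. All 3 siRNA.2 libraries were above all controls, by a small margin (0.21 ± 0.04, adjusted p = 1.44e-06). PARP2 rose by 0.22 ± 0.06, PARP3 by 0.44 ± 0.13 and PARG, which removes the polymer, by 0.34 ± 0.07. XRCC1, the scaffold of single-strand break repair, did not pass (log2 0.08 ± 0.08, adjusted p = 0.513). Of 25 genes of PARPs, erasers and single-strand break repair 8 were higher and 2 lower (median 0.15), the lower ones TNKS2 (-0.30) and TDG (-0.46). Of 35 double-strand break and checkpoint genes 5 were higher and 7 lower (median 0.01), both shares below those among genes of at least 1 FPKM, with 4 lower without control replicate 3. H2AX (log2 0.10 ± 0.05, adjusted p = 0.163) and ATM (0.06 ± 0.06, 0.548) did not pass, TP53BP1 fell by 0.31, and CHEK2 (-0.23 ± 0.08, adjusted p = 0.0213) lost its call without control replicate 3 or without siRNA.2 replicate 3.

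Several other lists had no common direction or small medians. NRF2 targets were lower in 10 of 21 cases and higher in 4 (median -0.10), with 6 lower without control replicate 3, and among them the ferritin chain FTH1 fell by 0.47 and the heme oxygenase HMOX1 by 0.61. Glycolysis genes were lower in 11 of 25 cases and higher in 6 (median -0.11): ALDOC fell by 0.80 and LDHA by 0.34, while HK2 rose by 0.49 ± 0.05. Lysosome and autophagy genes were lower in 10 of 26 and higher in 5 (median -0.02), with WIPI1 at -0.71 ± 0.18 and the protease CTSL at 0.58 ± 0.05. Cytosolic ribosomal proteins had 12 lower and 4 higher of 32 with a median of 0.00 and a higher count of 0 to 9 when 1 siRNA.2 library was left out (9 without replicate 1, 0 without replicate 2, 1 without replicate 3). The RNA interference machinery, 2 higher and 3 lower of 13, changed little: DICER1 fell by 0.24 and TNRC6B by 0.29.

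Large changes also fell outside the lists. FGFBP1, a secreted carrier of fibroblast growth factors (ENSG00000137440, chromosome 4, 15935577 to 15938740), had 119, 126 and 135 FPKM in the controls and 38.1, 33.9 and 34.98 FPKM with siRNA.2, with every siRNA.2 library far below every control (-1.85 ± 0.06). WNT4, a Wnt ligand (ENSG00000162552, chromosome 1, 22117313 to 22143969), fell from 2.90, 2.91 and 3.69 to 0.64, 0.51 and 0.71 FPKM (-2.36 ± 0.16). AHNAK, a very large scaffold protein, fell by 1.09, the tight junction protein TJP3 by 2.67, the integrin-binding protein EDIL3 by 2.04, the folate receptor FOLR1 by 1.90 and the serpin SERPINB13 by 2.60. MAB21L3 (-2.56 ± 0.17) and MAB21L4 (-2.63 ± 0.20) fell together. Upwards, the zinc finger gene ZNF239 rose by 2.91 ± 0.25 and GMPR, a guanine nucleotide reductase, by 3.16 ± 0.30. A few of the largest fitted changes were in short RNAs with few reads: RNU6-130P was at least 1.58-fold and SNORD88A at least 1.19-fold higher, and RNA5-8SN3 at least 3.00-fold lower.

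The gene annotation carried by the count table was used next, for 1400 GO_BP (biological process) terms of 15 to 300 tested genes over 13243 annotated genes and 311 Pathway terms over 8710. Terms were ranked by the share of their tested genes called in 1 direction, which describes them and is not a test, and terms share genes. The highest share upwards was that of tRNA aminoacylation for protein translation, with 26 of 37 genes higher and 2 lower (70.3%, median 0.27), against a background of 15.7%. Next came the chemokine-mediated signaling pathway, 13 of 21 higher and 0 lower, with a median of 1.27. Its first members by size, CCL4 and CCL4L2, are near-identical copies that were at least 6.0-fold and at least 6.14-fold higher from 3 or fewer reads per control library. Type I interferon signaling had 33 of 58 higher and 9 lower (median 0.70).

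Several of the other leading upward GO_BP terms concerned ribosomes, tRNAs and the making, assembly or import of proteins. Ribosome biogenesis had 23 of 42 genes higher and 2 lower (median 0.23), led by RSL24D1 (0.52 ± 0.05), BYSL (0.43 ± 0.08) and MRPL36 (0.53 ± 0.07). Positive regulation of mitochondrial translation had 10 of 18 higher and 0 lower (median 0.17), with NGRN at 0.41 ± 0.08 and C1QBP at 0.27 ± 0.04, and 6 higher without siRNA.2 replicate 3. Protein import into the mitochondrial matrix had 11 of 22 higher and 1 lower (median 0.24), with the import motor subunit PAM16 at 0.68 ± 0.15 and the translocase subunit TIMM44 at 0.40 ± 0.06. tRNA processing had 12 of 23 higher and 1 lower, and chaperone-mediated protein complex assembly 9 of 16 higher and 1 lower. These changes were small in size. The terms were ranked by their counts, so a share above the background follows from that choice. Among all tested genes of at least 1 FPKM, the share called higher was 23%. The remaining upward terms were branching in ureteric bud morphogenesis, 13 of 26 higher and 6 lower, with the BMP antagonist GREM1 at 2.59 ± 0.29 and SALL1 at 1.36 ± 0.37, and cellular response to glucagon, 8 of 16 higher and 4 lower.

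Downwards, regulation of the cholesterol biosynthetic process led with 27 of 32 genes lower and 1 higher (84.4%, median -0.41), against a background of 15.8%. Barbed-end actin filament capping followed, with 11 of 15 lower and 1 higher (median -0.23): gelsolin, GSN, fell by 0.78 and the capping protein subunit CAPZA1 by 0.69. O-glycan processing, the trimming and extension of mucin sugars, had 23 of 41 lower and 3 higher (median -0.34), with the sialyltransferase ST6GALNAC2 at -1.53 ± 0.16 and the mucin MUC20 at -1.47 ± 0.11. Cell-cell junction assembly had 15 of 28 lower and 3 higher (median -0.25), with AMOT at -1.51 ± 0.16 and ARVCF at -0.85 ± 0.22. Low-density lipoprotein particle clearance had 10 of 18 lower and 3 higher, phospholipid biosynthesis 14 of 26 lower and 5 higher, and regulation of canonical Wnt signaling 11 of 20 lower and 1 higher. Cytokine production had 11 of 20 lower and 1 higher, with 7 lower without siRNA.2 replicate 2. Its members include S100A8 and S100A9, given above, and FABP4, which was called lower with all of its control reads in control replicate 1 and showed no difference without that library. Positive regulation of EGF receptor signaling and camera-type eye morphogenesis each had 9 of 16 lower and 2 higher.

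In the Pathway column, aminoacyl-tRNA biosynthesis led upwards with 28 of 54 genes higher and 7 lower. RNA polymerase had 19 of 40 higher and 3 lower, with the RNA polymerase I subunits POLR1H (0.78 ± 0.12) and POLR1B (0.48 ± 0.05) and the polymerase III subunit POLR3G (0.53 ± 0.11) first. Ribosome biogenesis in eukaryotes had 52 of 134 higher and 8 lower, arginine and proline metabolism 16 of 37 higher and 3 lower, and one carbon pool by folate and 2-oxocarboxylic acid metabolism each 9 of 21 higher and 4 lower. Immune-named terms were graft-versus-host disease (15 of 32 higher, 1 lower), viral protein interaction with cytokine and cytokine receptor (25 of 63, 10 lower), the intestinal IgA network (8 of 21, 2 lower) and inflammatory bowel disease (15 of 42, 12 lower). Graft-versus-host disease includes HLA genes, which are described above.

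Downwards, steroid biosynthesis led with 13 of 22 lower and 2 higher, and mucin type O-glycan biosynthesis had 11 of 21 lower and 1 higher. Peroxisome, the organelle of very long chain fatty acid and ether lipid metabolism, had 34 of 87 lower and 7 higher (median -0.16): the carnitine transferase CROT fell by 1.08 and the isocitrate dehydrogenase IDH1 by 1.01. Propanoate metabolism had 15 of 37 lower and 2 higher, terpenoid backbone biosynthesis 10 of 24 lower and 1 higher, glycerolipid metabolism 20 of 49 lower and 11 higher, and starch and sucrose metabolism 8 of 19 lower and 3 higher. Signalling terms were the Fc epsilon RI pathway (25 of 57 lower, 6 higher), in which the exchange factor VAV3 fell by 2.20 and the lipoxygenase ALOX5 by 1.86, the Hippo pathway of multiple species (12 of 26 lower, 2 higher) and dorso-ventral axis formation (13 of 27 lower, 6 higher), with NOTCH3 lower by 1.12. The column assigns some genes that its term names do not describe, such as CRISPLD2 to peroxisome and C1S to aminoacyl-tRNA biosynthesis, and the counts follow the column. Counts in the direction for which a term was not ranked are mostly of a few genes, and several of them moved by single genes when 1 library was left out.

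The siRNA.2 libraries were also set directly against the siRNA.1 libraries over the same 21314 genes, and 2576 genes (12.1%) passed, 1259 higher and 1317 lower with siRNA.2. This comparison and the one against control siRNA share the siRNA.2 libraries, so the values are given side by side. For the interferon group, IFIT1 had 104.7, 108 and 103 FPKM in siRNA.1 libraries 1 to 3 beside 90.4, 89.6 and 87.8 FPKM with siRNA.2, and RSAD2 22.1, 22.6 and 21.4 beside 19.01, 18.5 and 18.1 FPKM. The log2 differences of siRNA.2 against siRNA.1 were -0.22 ± 0.04 (adjusted p = 4.34e-06) and -0.24 ± 0.06 (adjusted p = 7.15e-04). CXCL10 had 80.01, 89.1 and 86.96 FPKM with siRNA.1, which differed from siRNA.2 by 0.29 ± 0.06 (adjusted p = 1.59e-05). For the amino acid group PSAT1 had 149.5, 143 and 147 FPKM with siRNA.1 (difference 0.32 ± 0.04, adjusted p = 1.36e-11) and CHAC1 23.96, 21.9 and 23.3 FPKM (difference 0.01 ± 0.08, adjusted p = 0.97). For sterols INSIG1 had 7.23, 7.11 and 6.06 FPKM with siRNA.1 (difference -0.32 ± 0.09, adjusted p = 0.00484) and MVK 2.03, 1.79 and 1.98 FPKM (difference 0.11 ± 0.12, adjusted p = 0.667). KRT5 had 40.9, 42.2 and 36.8 FPKM with siRNA.1 (difference 0.49 ± 0.04, adjusted p = 4.06e-27), and MT-CO3 had 3393, 3296 and 3317 FPKM (difference 0.25 ± 0.03, adjusted p = 2.13e-16).

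Of the genes called in the same direction against both other groups, the 5 with the largest differences per direction were taken. CHGB (chromogranin B, ENSG00000089199, chromosome 20, 5911510 to 5925353), a protein of secretory granules, had 0.72, 0.88 and 0.9 FPKM in the controls, 0.72, 0.6 and 0.85 FPKM with siRNA.1 and 2.00, 2.46 and 2.45 FPKM with siRNA.2. Controls and siRNA.1 lay in the same range and siRNA.2 alone was higher, by 1.68 ± 0.18 against siRNA.1 (adjusted p = 2.60e-17). The cyclin CCNA1 (1.46 ± 0.16, 1.40 ± 0.508 and 3.55 ± 0.291 FPKM, mean ± SD over control, siRNA.1 and siRNA.2), the kinase scaffold MAPK8IP2 (1.94 ± 0.0404, 1.80 ± 0.277 and 4.68 ± 0.269), the synaptic protein complexin CPLX1 (0.443 ± 0.153, 0.547 ± 0.0651 and 1.61 ± 0.26) and TMEM145 (0.453 ± 0.0814, 0.65 ± 0.157 and 1.59 ± 0.157) were likewise highest with siRNA.2. Lower with siRNA.2 than in either other group were FSTL1, a secreted glycoprotein (2.40 ± 0.2, 3.10 ± 0.136 and 1.03 ± 0.06 FPKM, difference from siRNA.1 -1.58 ± 0.11, adjusted p = 1.10e-40), the antisense RNA GPC1-AS1 (3.87 ± 0.505, 3.42 ± 0.382 and 1.34 ± 0.217), RBAKDN (2.00 ± 0.895, 2.31 ± 1.13 and 0.76 ± 0.0436, with large spread and a call against control that was lost without any of 5 libraries), the sulfotransferase SULT2B1 (1.74 ± 0.311, 1.05 ± 0.23 and 0.353 ± 0.0513) and SCEL (1.69 ± 0.145, 1.04 ± 0.321 and 0.43 ± 0.113). Without strand information the reads of GPC1-AS1 and its sense partner cannot be told apart.

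**Figure D1:**
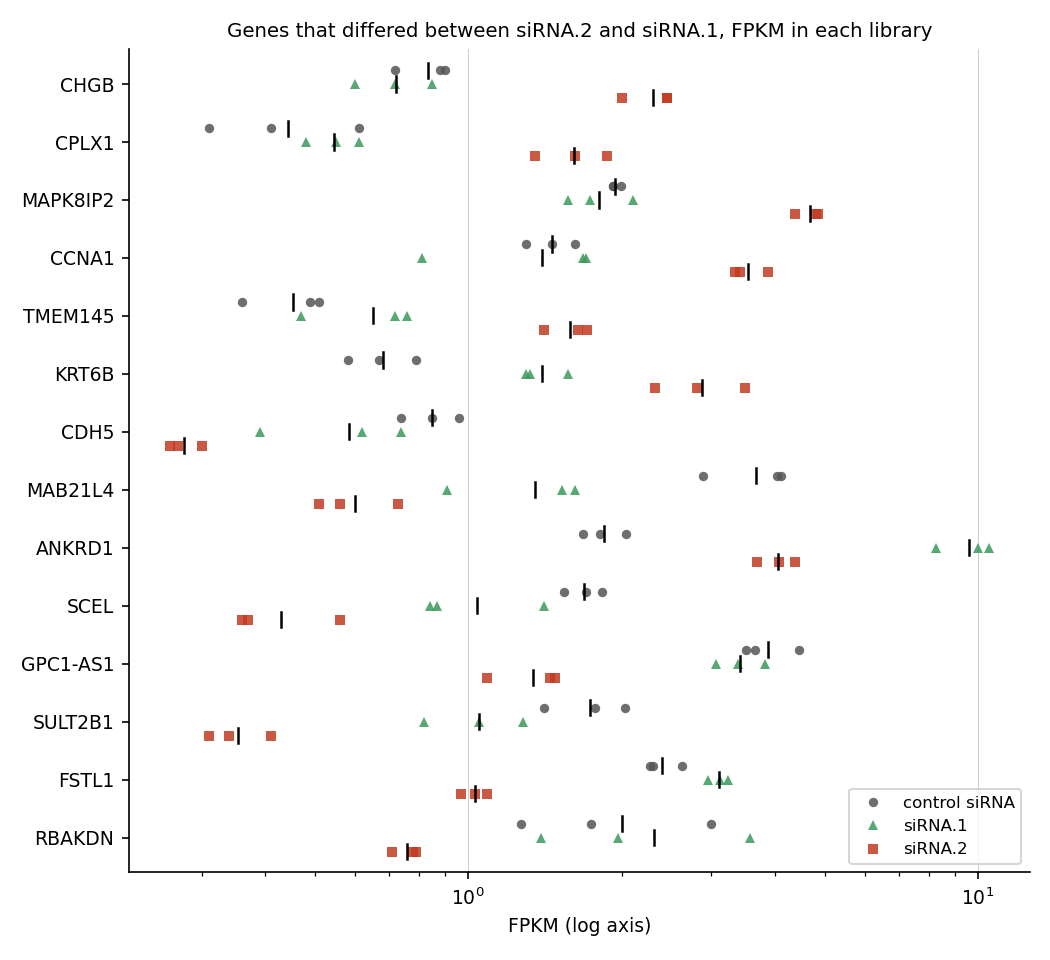
FPKM (x axis, log scale) in each library of control siRNA (grey circles), siRNA.1 (green triangles) and siRNA.2 (red squares), with a black bar at each group's mean, for 14 genes that differed between siRNA.2 and siRNA.1. For CHGB, CPLX1 and MAPK8IP2 control siRNA and siRNA.1 overlap and siRNA.2 lies to their right, for FSTL1 and GPC1-AS1 siRNA.2 lies to the left of both, and for ANKRD1 siRNA.2 lies between control siRNA and siRNA.1.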

How the data were processed

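RNA sequencing was carried out on poly(A)+ RNA of TE13 cells (NovaSeq 6000). Per the study's methods, the authors aligned reads with STAR and made gene counts with featureCounts, and the submitters' processing notes name GRCh38. Tool versions, annotation release and strand setting are not given in the sources used here. The authors deposited raw counts and FPKM values (count over exonic length and library total, to within 0.005 of the deposited counts rescaled). 60463 of 60605 gene IDs matched GENCODE 44.

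Groups followed the labels, 3 libraries each. Counts of the 21314 genes that averaged 0.1 FPKM or more were tested with edgeR 4.0.16 (R 4.3.3), TMM scaling, the quasi-likelihood test and Benjamini-Hochberg adjustment at 0.05. SEs were derived from the F statistic. siRNA.2 and siRNA.1 were compared in a fit of all 9 libraries. The common biological coefficient of variation was 0.0545. Genes with 3 or fewer reads in every library of a group are given as bounds against 3 reads per library. The fit was tested on simulated counts. Alternatives used DESeq2 1.42.0, limma 3.58.1 on log2(FPKM + 0.1) or log2(FPKM + 1), other scaling, filters, a replicate block and leaving out each library. The study's methods name DESeq2. Here edgeR was the main test.

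Genes, lists and comparisons were chosen with earlier results of these data known. Named genes were, per direction, the 15 largest folds, 8 largest FPKM differences and 8 smallest p among called, non-overlapping genes of at least 1 FPKM, 5 that also differed from siRNA.1, up to 4 per list, up to 3 per term, and those the study names. Other list members named were chosen after their values were seen. Promoters came from RefSeq, and intervals cover counting error only. Near-identical or overlapping genes may share reads. No label said whether same-numbered control and siRNA.2 libraries belonged together, and the main test did not pair them.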

Additional observations from a re-analysis of the deposited data

Results flagged for a closer look

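14 genes among those named differed between the 2 PARylator siRNAs by at least 1 on the log2 scale when siRNA.2 was tested directly against siRNA.1 (edgeR quasi-likelihood test over 9 libraries, adjusted p under 0.05). Higher with siRNA.2 were CHGB by 1.68, CPLX1 by 1.57, MAPK8IP2 by 1.38, CCNA1 by 1.34, TMEM145 by 1.30 and the keratin KRT6B by 1.05. Lower with siRNA.2 were CDH5 at -1.06, MAB21L4 at -1.16, ANKRD1 at -1.24, SCEL at -1.25, GPC1-AS1 at -1.33, SULT2B1 at -1.56, FSTL1 at -1.58 and RBAKDN at -1.59. ANKRD1, a target of YAP, is the gene among them that siRNA.2 raised against control siRNA and that was nevertheless lower than with siRNA.1. CDH5 and MAB21L4 were below control siRNA with siRNA.2, and the other lower genes except ANKRD1 were as well. RBAKDN rested on few and scattered reads. The causes of these differences were not tested.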

How the results depend on the processing

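Scaling, filter, replicate block, 9-library fit, DESeq2 and limma gave between 4946 and 6812 called genes against 6705 (DESeq2 5833, limma on log2(FPKM + 0.1) 5061, limma on log2(FPKM + 1) 4946), and leaving out 1 library gave 5743 (without siRNA.2 replicate 3) to 6259. Requiring an absolute log2 change of 1 left 865 genes, 473 higher and 392 lower. With a replicate block 6812 genes were called. Same-numbered libraries correlated at 0.059, 0.0505 and 0.00816 in their deviations from the group means. These values were small, but each library correlated best with its own number. Whether the numbers mark a shared culture or batch was not given. The number of genes differing between siRNA.2 and siRNA.1 was 2318 with the block, 2334 by DESeq2 and 1903 (without siRNA.2 replicate 3) to 2235 without 1 library, against 2576. The change of LINC00885 ranged from -3.17 to -1.81 when 1 library was left out, and passed only without siRNA.2 replicate 3. Of 268 called named genes, 223 kept their call under all 15 alternatives and 45 lost it under at least 1. FABP4 was 0 without control replicate 1, which held all its control reads, and -6.56 without control replicate 2. Without 1 library BBC3 ranged from -0.116 to 0.0352 (-0.03 with all libraries). Without 1 library ATM ranged from -0.0698 to 0.15 (0.06 with all libraries). Neither was called. Of 8806 tested genes below 1 FPKM, 894 were called. The causes of lost calls were not tested.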
